A study of Homo sapiens with 2 samples.

Results

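Few genes span 500 kb or more, and among them are adhesion molecules, ion channels and signalling enzymes. The distal ATAC-seq peaks inside such genes were described here in G401, a cell line established from a rhabdoid tumor that arose in kidney. ATAC-seq uses the Tn5 transposase to cut open chromatin, so that sequenced tags pile up at accessible sites. A peak was a member when its summit lay on chromosomes 1 to 22, inside the body of a protein-coding gene of at least 500 kb (GENCODE, GRCh37/hg19), and more than 10 kb from every annotated protein-coding transcription start site (TSS). Of 19229 autosomal protein-coding genes, 310 were that long. They held 10782 member peaks of 276190 peaks in all: 3202 of 114506 in the DMSO library and 7580 of 161684 in the MAK683 library.

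The DMSO library came from G401 cells given the solvent for 3 days. The MAK683 library came from G401 cells given MAK683 for 3 days. MAK683 is an inhibitor of Polycomb repressive complex 2 (PRC2) that docks on its EED component, and the methyltransferase is then inactive. There was 1 library per group, so the differences below were not checked in replicates and p-values were not calculated. A single line stands for each condition, and drug effect and library quality cannot be told apart. After the authors' filter, DMSO kept 16598348 tags and MAK683 kept 18265284. The lowest called peak had 6 tags in both. All intervals are at 95% and cover counting error alone. They treat nearby peaks as separate events, and tags, which carried no molecular barcode, as separate molecules. The peak lists hold no expression, so the cell type was not checked against marker genes.

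PRC2 places methyl groups on lysine 27 of histone H3, and the mark compacts chromatin over developmental genes that a cell keeps silent. Very long genes consist mostly of introns, in which enhancers, CTCF sites and wide stretches of closed chromatin lie side by side. Many of them code for adhesion molecules, guidance cues, ion channels and synaptic scaffolds, and several cover common fragile sites. In a cell type that does not use them, such genes are often closed along their whole body.

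The summit windows below show what the member peaks look like as sequence, and were taken because each leads 1 of the rankings used below. All are 300 bases of GRCh37, plus strand, centred on the summit. Capitals mark a match to any of the motifs searched (AP-1, GATA, TEAD, RUNX, E-box, NFI, CTCF). Only full matches to a search pattern were marked, so sequence close to a motif stays in small letters. The tallest member peak of the MAK683 library lay in an intron of TENM2 (chr5:166477523-166477822) and held no match. The tallest MAK683 member peak that overlapped no DMSO peak lay in an intron of ARHGAP15 (chr2:143919850-143920149) and held 1 AP-1 match. The shared region with the highest height ratio, MAK683 over DMSO, lay in PDE10A (chr6:166260564-166260863) and held 1 NFI match. The shared region with the lowest ratio lay in INPP4B (chr4:143293751-143294050) and held 2 E-box matches.
TENM2: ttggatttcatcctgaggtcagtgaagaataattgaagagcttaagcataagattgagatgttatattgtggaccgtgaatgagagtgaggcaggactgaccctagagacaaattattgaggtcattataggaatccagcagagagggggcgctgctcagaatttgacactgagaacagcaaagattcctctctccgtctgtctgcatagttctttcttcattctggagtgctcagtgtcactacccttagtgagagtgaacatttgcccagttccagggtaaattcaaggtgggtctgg
ARHGAP15: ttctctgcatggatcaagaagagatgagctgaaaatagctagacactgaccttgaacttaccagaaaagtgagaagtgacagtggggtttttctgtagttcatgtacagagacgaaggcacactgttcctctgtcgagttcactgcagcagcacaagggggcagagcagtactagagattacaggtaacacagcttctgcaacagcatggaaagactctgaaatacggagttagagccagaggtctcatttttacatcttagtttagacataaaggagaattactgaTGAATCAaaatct
PDE10A: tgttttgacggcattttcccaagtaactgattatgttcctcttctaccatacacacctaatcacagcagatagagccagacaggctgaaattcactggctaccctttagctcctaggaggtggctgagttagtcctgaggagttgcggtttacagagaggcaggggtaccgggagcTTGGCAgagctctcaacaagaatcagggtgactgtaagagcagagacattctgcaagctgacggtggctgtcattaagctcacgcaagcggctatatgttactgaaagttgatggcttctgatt
INPP4B: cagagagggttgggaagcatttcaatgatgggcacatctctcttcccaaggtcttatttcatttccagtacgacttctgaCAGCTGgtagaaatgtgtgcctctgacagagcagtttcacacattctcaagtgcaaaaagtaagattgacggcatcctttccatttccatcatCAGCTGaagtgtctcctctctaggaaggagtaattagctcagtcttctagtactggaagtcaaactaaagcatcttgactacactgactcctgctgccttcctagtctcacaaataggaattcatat

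Peaks inside long genes were more numerous in the MAK683 library. The number was 3202 in DMSO and 7580 in MAK683, a ratio of 2.37 (2.27 to 2.47), or 13.5 and 32 peaks per Mb of the 237 Mb of sequence where a member could lie. Distal peaks inside shorter protein-coding genes went from 25868 to 33944, a ratio of 1.31 (1.29 to 1.33). Distal peaks outside protein-coding genes went from 26311 to 56280, a ratio of 2.14 (2.11 to 2.17). Peaks within 10 kb of a coding TSS numbered 56606 and 61052, a ratio of 1.08 (1.07 to 1.09). The interval of the long genes thus lay above those of the other sets, far from shorter genes and close to intergenic sequence. Of all autosomal peaks, long genes held 2.86% in DMSO and 4.77% in MAK683.

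The excess was made of low peaks. Heights were scaled to tags per 1000000 filtered tags (RPM), so that 1 tag equals 0.0602 RPM in DMSO and 0.0547 RPM in MAK683. Under 0.5 RPM, member peaks numbered 742 in DMSO and 3882 in MAK683, a ratio of 5.23 (4.84 to 5.67). Tags are whole numbers, so this class ends at 8 tags in DMSO and at 9 tags in MAK683. How far the wider MAK683 class adds to that ratio, and to the shares under 0.5 RPM given below, was not tested. At 0.75 RPM or more member peaks numbered 954 and 1039, a ratio of 1.09 (0.997 to 1.19). At 1 RPM or more the order turned, with 473 in DMSO and 308 in MAK683, a ratio of 0.651 (0.562 to 0.753). At 2 RPM or more 46 and 8 were left. The same slope with height was seen in the other distal sets. Low peaks were also more frequent in the MAK683 library as a whole, where 44% of autosomal peaks were under 0.5 RPM against 22.7% in DMSO, and the part of that shift in the long genes was not tested. When only the tallest MAK683 peaks were kept, as many as DMSO had, the ratio was 1.54 (1.48 to 1.61) in long genes, 0.868 (0.852 to 0.883) in shorter genes and 1.44 (1.42 to 1.46) outside genes.

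**Figure D1:**
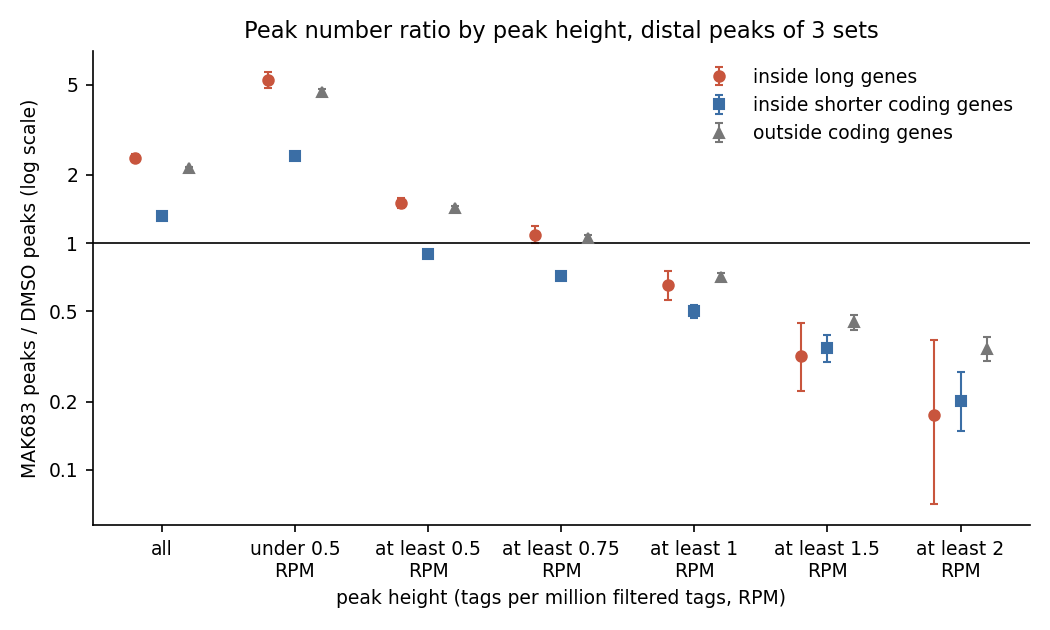
Ratio of peak numbers, MAK683 over DMSO (log axis), by peak height in RPM, for distal peaks inside long genes (circles), inside shorter coding genes (squares) and outside coding genes (triangles). Bars are 95% exact intervals. In long genes the ratio runs from 5.23 under 0.5 RPM to 0.174 at 2 RPM or more and crosses 1 between 0.75 and 1 RPM. The class under 0.5 RPM ends at 8 tags in DMSO and at 9 tags in MAK683.

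The sets differed in how the ratio went with base composition around the peaks. Distal peaks were sorted by the GC content of the 20 kb around the summit. In long genes the ratio was 2.85 (2.52 to 3.24) below 36% GC and 2.15 (1.93 to 2.39) at 47% GC or more. Outside coding genes it was 2.86 (2.67 to 3.06) below 36% and 1.48 (1.45 to 1.52) at 47% or more. Inside shorter genes it was 1.11 (1.04 to 1.20) and 1.17 (1.13 to 1.20). Between these ends, long genes lay below intergenic sequence at 36 to 38% GC (2.07, 1.88 to 2.28, against 2.82, 2.68 to 2.97) and at 38 to 40% (2.21 against 2.76). They were about equal to it at 40 to 43% (2.64 and 2.63) and above it at 43 to 47% (2.49 and 2.15). The ratio of long genes thus had no steady trend with GC, while that of intergenic sequence fell. Long genes lay above shorter genes in every class.

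The libraries also differed in how peaks were spread over genes. A member peak was found in 234 long genes in DMSO and in 273 in MAK683. In DMSO, the peaks were so concentrated that 15 genes were enough to reach the midpoint of the total, and the 10 fullest genes held 39.1%. In MAK683, 52 genes were needed for as many and the 10 fullest held 16.0%. The median gene had 3 peaks in DMSO (quartiles 1 and 6) and 18 in MAK683 (quartiles 5 and 33). Of 5329 windows of 50 kb along these genes, 972 held a DMSO peak (18.2%) and 2293 a MAK683 peak (43%). DMSO peaks were thus crowded into a few genes, and MAK683 peaks were spread over most of them.

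MAK683 had more peaks than DMSO in 220 genes, fewer in 48 and the same number, above 0, in 9. No peak of either library lay in the remaining 33. A ratio per gene was formed for 219 genes with at least 10 peaks over both libraries. Of them, 163 (74.4%) had at least 2 times as many peaks in MAK683, against 41.4% of the 2180 autosomal coding genes of any length with at least 10 distal peaks. At most 0.5 times as many were found in 5 genes (2.28%), against 18.8% of all those genes. The median ratio was 7.0 in long genes, with a DMSO count of 0 set to 0.5, and 6.33 with it set to a floor of 3 peaks. Over all 2180 genes, which include the long ones, the median was 1.14. The limit of 10 peaks is a count and not a density, so a long gene can reach it with sparser peaks than a shorter one. Of the 219 long genes, 21 had no DMSO peak. The 2 sets thus differ in more than gene length, and the part of this in the contrast was not tested. The interval of the gene lay above 1 in 155 long genes, below 1 in 14 and on both sides of 1 in 50. Neither these counts nor the 220 and 48 genes above were set beside all coding genes. Whether they are unusual was thus not tested.

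Of the 10 fullest genes, 9 had fewer peaks in MAK683, and for 8 of them the interval lay below 1. The 10 were chosen by the sum over both libraries, and the part of that choice in their ratios was not tested. LSAMP, a neuronal adhesion molecule (chr3:115521221-116858236, minus strand), had 189 peaks in DMSO and 144 in MAK683, a ratio of 0.762 (0.609 to 0.951). GLIS3, a zinc finger transcription factor, had 191 and 126, a ratio of 0.660 (0.523 to 0.830). GSE1 had 162 and 98, a ratio of 0.605 (0.466 to 0.782).

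Some of these genes were covered end to end already in DMSO. GLIS3 and GSE1 each had a DMSO peak in 11 of 11 windows of 50 kb, while LSAMP had one in 17 of 27. FRMD4A, a FERM domain scaffold, and TENM2, a teneurin adhesion receptor, each had 112 and 77 peaks, a ratio of 0.688 (0.508 to 0.927). SLC8A1, a sodium-calcium exchanger, had 98 and 62, a ratio of 0.633 (0.453 to 0.878). CAMTA1, a calmodulin-binding transcription activator, had 83 and 82, a ratio of 0.988 (0.719 to 1.36), an interval that held 1. At −log10 q of at least 5, a stricter significance cutoff than the authors used, CAMTA1 had 54 and 33, a ratio of 0.611 (0.384 to 0.960), below 1. In these 10 genes together, peaks of at least 1 RPM numbered 201 in DMSO and 69 in MAK683.

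The exception among the fullest was SLIT3, a secreted ligand of ROBO receptors that repels growing axons (chr5:168088745-168728143, minus strand). It had 6 peaks in DMSO and 140 in MAK683, a ratio of 23.3 (10.5 to 64.7). Its own promoter had no peak in DMSO and 1 of 14 tags in MAK683. A peak was present in 4 of 13 windows of 50 kb in DMSO and in 13 of 13 in MAK683. The peaks were low, with 21 tags at most in MAK683 and 19 in DMSO. The 6 DMSO peaks were all overlapped by MAK683 peaks, so the additional peaks filled the intervals between sites that were present in both. In the 1 Mb on either side, outside long genes and away from coding TSSs, peaks numbered 43 and 71.

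Among 165 genes with at least 20 peaks, 13 had none in DMSO and 67 had at least 10 times as many in MAK683, counting 0 as 0.5. A gene without a DMSO peak reaches 20 through its MAK683 peaks alone. The same counts were not made over all coding genes, so whether these are unusual was not tested. SH3RF3, a RING finger ubiquitin ligase, had 0 peaks in DMSO and 56 in MAK683, at least 18.7-fold more against a floor of 3 peaks per library. Its 56 peaks lay in 7 of 11 windows of 50 kb, none taller than 18 tags. FGF14, an intracellular FGF that modulates sodium channels, had 0 and 38, and its flanks of 1 Mb had 9 and 115. NKAIN2, a protein that interacts with the sodium pump, had 0 and 37. TENM3, a teneurin, had 0 and 34.

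ATP8A2, a phospholipid flippase, ENOX1, and RELN, the secreted matrix protein that guides migrating neurons, each had 0 and 29. SLC9A9, an endosomal sodium-proton exchanger, had 1 and 58 peaks, a ratio of 58.0 with a wide interval from 10.0, and a peak in 12 of 12 windows in MAK683. In these 8 genes, peaks of at least 1 RPM numbered 0 in DMSO and 4 in MAK683. An own-promoter peak was called in DMSO for 7 of them, with 9 tags (RELN) to 41 tags (NKAIN2), and SLC9A9 had none in DMSO and 1 of 12 tags in MAK683. With −log10 q of at least 5, MAK683 peaks numbered 17 in SH3RF3, 10 in FGF14, 8 in NKAIN2, 13 in TENM3, 12 in ENOX1, 8 in RELN and 23 in SLC9A9. ATP8A2 then had 0 and 4, with an interval from 0.66 that held 1.

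At the other end, RIMS2, a scaffold of the presynaptic active zone, had 26 peaks in DMSO and 8 in MAK683, a ratio of 0.308 (0.120 to 0.700). PRKG1, a cGMP-dependent protein kinase, had 51 and 17, a ratio of 0.333 (0.180 to 0.587). LRBA, a vesicle trafficking protein, had 20 and 8, and PRKCA, protein kinase C alpha, had 76 and 38. INPP4B, a phosphatase of the phosphoinositide pathway (chr4:142944313-143768585, minus strand), had 105 and 56, a ratio of 0.533 (0.379 to 0.745). DLG2, a synaptic scaffold, had 73 and 42. LPP, a focal adhesion protein, had 33 and 19, a ratio of 0.576 (0.309 to 1.04) whose interval held 1. It was 0.353 (0.114 to 0.938) at the stricter q-value and 0.455 (0.229 to 0.861) with equal numbers of peaks, both below 1. LRBA had 9 and 3 at the stricter q-value, an interval of 0.058 to 1.34. The flanks of LPP went the other way, with 15 and 136 peaks.

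**Figure D2:**
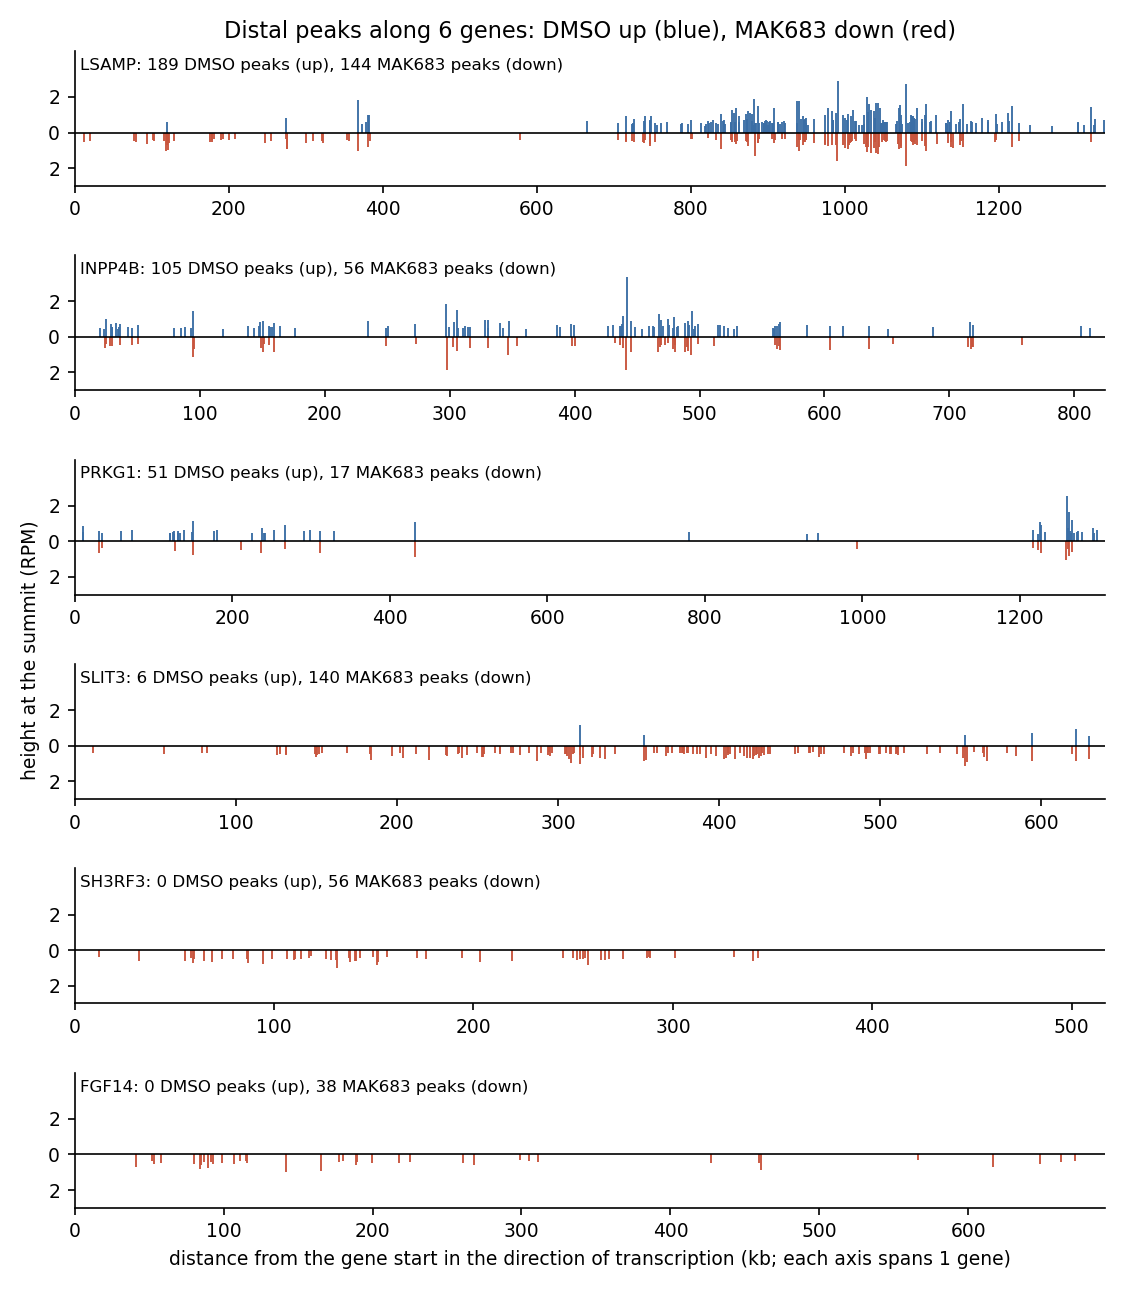
Distal peaks along 6 genes, as distance from the gene start in kb (x axis, 1 gene per panel) and height at the summit in RPM (y axis, DMSO upward in blue, MAK683 downward in red). LSAMP, INPP4B and PRKG1 have clustered tall DMSO peaks. SLIT3, SH3RF3 and FGF14 have many MAK683 peaks, nearly all under 1 RPM, along the body, with 6, 0 and 0 DMSO peaks.

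The 5 longest genes differed widely. RBFOX1, a splicing regulator of 2474 kb (chr16:5289803-7763342, plus strand), had no member peak in either library over 2.31 Mb, while its own promoters had peaks of 21 tags in DMSO and 23 in MAK683. CNTNAP2, a neurexin family member, had 0 and 2. DLG2, also among these 5, had 37.2 and 21.4 peaks per Mb, more than the long genes as a whole in DMSO. PTPRD, a receptor tyrosine phosphatase, had 26 and 26, a ratio of 1.0 (0.558 to 1.79). Its ratio was 0.353 (0.114 to 0.938) at the stricter q-value and 0.385 (0.166 to 0.824) with equal numbers of peaks, both intervals below 1. CSMD1 had 0 and 25, at least 8.33-fold more against the floor, and no promoter peak in either library.

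The 33 genes with no member peak covered 29.4 Mb. For each, a count of 0 allows up to 3 peaks, and peak lists do not show whether copy number or mappability lowered it. The first by symbol were CALN1, CDH12, CDH18, CEP112 and CNBD1. An own-promoter peak was called in 7 of the 33 in DMSO and in 15 in MAK683. In 7 of them the 1 Mb flanks had no distal peak in either library, while the flanks of all 33, each counted on its own, summed to 610 DMSO and 1029 MAK683 peaks. Their median GC content was 38%, against 38.3% in the other long genes.

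ROBO1, the receptor of SLIT ligands and the long gene in the study's list of qPCR primers, had 0 peaks in DMSO and 15 in MAK683, at least 5.0-fold more against the floor. At −log10 q of at least 5 it had 0 and 4, with an interval from 0.66 that held 1. The MAK683 peaks lay in 9 of 24 windows of 50 kb, and the tallest had 15 tags. Its promoter was about equally tall in both, at 40 tags in DMSO and 43 in MAK683. Its flanks had 0 and 10 peaks.

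The ratio of pooled peak numbers differed with the state of a gene's own promoter. In 232 genes with a promoter peak in both libraries, member peaks numbered 3059 and 6194 and the ratio was 2.02 (1.94 to 2.12), or 17.6 and 35.7 per Mb. In 45 genes with a promoter peak in MAK683 alone they numbered 105 and 1111, a ratio of 10.6 (8.66 to 13.1), or 3.10 and 32.8 per Mb. In 29 genes with none in either library they numbered 28 and 287, a ratio of 10.2 (6.94 to 15.7), or 1.02 and 10.4 per Mb. Genes whose promoter was called in MAK683 alone therefore reached about the peak density of genes open in both. Median ratios per gene differed less, at 6.0 (both libraries), 12.7 (MAK683 alone) and 10.5 (neither), over 184, 27 and 7 genes with at least 10 peaks. Grouping by a missing DMSO promoter call may itself pick genes poor in DMSO peaks, which was not tested. A single gene had a promoter peak in DMSO alone, and 3 of the 310 had no annotated coding transcript to place one.

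The gene and its neighbourhood were compared in 163 genes with at least 20 peaks in the body and 20 in the flanks. The median log2 ratio was 2.89 in the bodies and 1.21 in the flanks, with 0.5 added to each count. The body was above its own flanks in 114 genes and below in 49. A body without DMSO peaks reaches 20 through its MAK683 peaks alone, and flanks hold shorter genes as well as intergenic sequence. The part of this in the difference was not tested, and the comparison was not made for other genes. Body and flanks both had more peaks in MAK683 in 123 genes and both fewer in 15. In 10 genes only the body had more, and in 14 only the flanks. Across these genes the log2 ratios had a Pearson r of 0.39 and a Spearman rho of 0.38, a description over genes that share both libraries and, for neighbours, flanks. Counted once each, distal peaks within 1 Mb of a long gene but outside any had a ratio of 2.00 (1.95 to 2.04).

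Ratios differed by chromosome. They were highest, among chromosomes with at least 10 long genes, on chromosome 6 (57 and 429 peaks, 7.53, 5.70 to 10.1) and chromosome 13 (40 and 289, 7.22, 5.18 to 10.3). Chromosome 16, with GSE1 and 6 other long genes, had 267 and 201 peaks, a ratio of 0.753 (0.624 to 0.907). GSE1 alone held 162 and 98 of them, so that ratio rests largely on 1 gene. By length, the ratio was 2.62 (2.46 to 2.79) for genes of 500 to 750 kb, 2.02 (1.87 to 2.18) up to 1 Mb and 2.41 (2.22 to 2.62) from 1 Mb. At the length limit, ANO5 (501 kb) had 0 and 3 peaks just inside and DIAPH3 (498 kb) had 4 and 2 just outside.

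The long genes were sorted into 10 functional lists, and each was set beside the median ratio of 7.0 over all 219 rated long genes. The axon guidance list, which holds guidance ligands, receptors and intracellular neuron navigators, had the highest median. Of 12 axon guidance genes, 9 had more peaks in MAK683, 0 had fewer and 3 had none in either library, and peaks totalled 22 and 393, a ratio of 17.9 (11.6 to 28.8). All 6 with at least 10 peaks had at least 2 times as many in MAK683, as did 74.4% of all rated long genes, with a median of 27.2, or 16.6 with 0 at the floor of 3. SLIT3 and NAV2, a neuron navigator (13 and 127), held most of these peaks, followed by PLXNA4, a semaphorin coreceptor (2 and 49).

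Of the 8 genes in the ion channel list, all had at least 2 times as many peaks in MAK683, beside 74.4% of all rated long genes, with 26 and 285 in total, a ratio of 11.0 (7.33 to 17.1) and a median of 9.25. They included KCNMA1, the large-conductance potassium channel (4 and 76), CACNA1C, an L-type calcium channel subunit (7 and 60), and RYR2, a calcium release channel (4 and 54). KCNAB1, a potassium channel subunit that the list did not hold, had 54 and 43. Of 9 neurotransmitter receptors, 7 had more and 0 fewer, with a median of 4.75 over 7 rated genes. GRID1, a delta glutamate receptor, held 8 and 132 of their 31 and 230 peaks.

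Adhesion genes were mixed. Of 31 synaptic and neuronal adhesion genes, 19 had more peaks in MAK683, 4 fewer and 8 none in either library, with a median of 9.22. KIRREL3, an immunoglobulin superfamily adhesion molecule, had 9 and 117 and OPCML 5 and 63, whereas LSAMP, TENM2, TENM4 (65 and 51) and NLGN1, neuroligin 1 (49 and 36), were the 4 with fewer. The interval of TENM4, 0.533 to 1.15, was 0.416 to 0.947 with equal numbers of peaks. The total ratio of 1.80 (1.62 to 2.01) was lower than the median because those 4 genes held most of the DMSO peaks of the list. Of 10 cadherins and catenins, 7 had more and 1, CDH13 (29 and 21), fewer, with a median of 5.58. Among 6 receptor tyrosine phosphatases, PTPRN2 (13 and 125), PTPRG (2 and 35) and PTPRK (1 and 19) had more, PTPRD had 26 in both, an equality lost under stricter settings as given above, and 2 had none.

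Scaffold and cytoskeleton genes were the list with the lowest median, 1.1 over 19 rated genes. Of 27, 12 had more peaks in MAK683 and 12 fewer, 6 of the rated genes had at least 2 times as many and 1, RIMS2, at most 0.5 times. DAB1, the adaptor of reelin signalling, had 7 and 117 and MAGI2 3 and 48. FRMD4A, DLG2, DLGAP1 (76 and 65) and KIF26B, a kinesin family member (74 and 65), had more in DMSO. DNM3, a dynamin in no list, had 53 and 46. With equal numbers of peaks, DLGAP1 had 76 and 48, a ratio of 0.632 (0.431 to 0.918).

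Of 31 signalling enzymes, 22 had more peaks and 4 fewer (INPP4B, PRKCA, PRKG1 and DOCK1), with a median of 6.83. GALNTL6 had 6 and 84, and PDE10A, a cyclic nucleotide phosphodiesterase, 7 and 63. Of 28 transcription and RNA regulators, 20 had more and 6 fewer, with a median of 9.0. MYT1L, a neuronal zinc finger factor, had 5 and 94, MECOM 2 and 44, and NFIA 20 and 58. SOX6, an SRY-box factor whose promoter had a peak in MAK683 alone (10 tags), had 6 and 29, and 5 and 12 at the stricter q-value with an interval of 0.787 to 8.70. The 25 genes at common fragile sites, which cross the other lists, had 18 with more and 5 with fewer, and a median of 5.29. The lists were drawn up with results of these data known, and nothing is claimed to be particular to any of them.

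**Figure D3:**
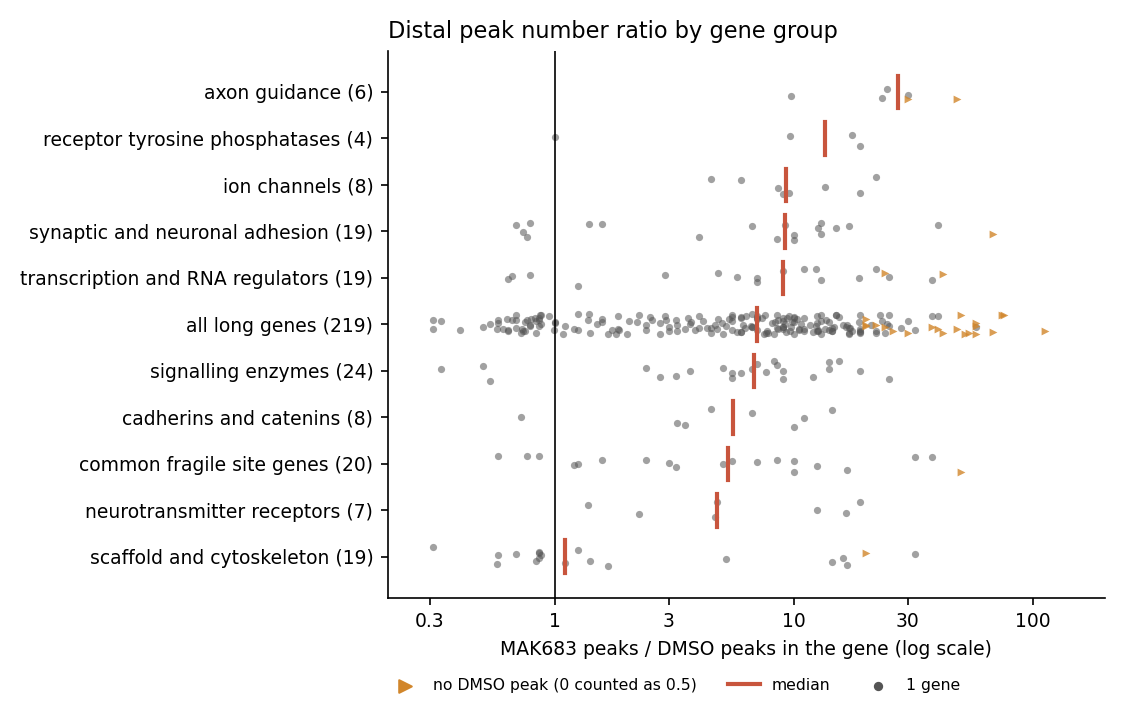
Ratio of distal peak numbers, MAK683 over DMSO (log axis), for genes with at least 10 peaks in each list (number of genes in brackets), with the median as a red bar. Grey points are genes and orange triangles genes without a DMSO peak, for which 0 was counted as 0.5. The median runs from 1.1 for scaffold and cytoskeleton genes to 27.2 for axon guidance genes, around 7.0 for all long genes.

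Sharing between libraries was asymmetric. Of the DMSO member peaks, 53.1% (51.3 to 54.8) were overlapped by a MAK683 peak by at least 1 bp. Of the MAK683 member peaks, 23.9% (22.9 to 24.9) were overlapped by a DMSO peak. Inside shorter genes the shares were 43.5% and 35.2%, and outside coding genes 60.1% and 30.2%. Peaks in DMSO alone numbered 1503 and in MAK683 alone 5770, a ratio of 3.84. It was 1.5 in shorter genes, 3.75 outside genes and 1.84 over all autosomal peaks. Of members of at least 1 RPM, 460 of 473 in DMSO (97.3%) and 253 of 308 in MAK683 (82.1%) had a partner of any height. The MAK683 share at that height was 89.9% in shorter genes, 90.9% outside genes, 97.2% near coding TSSs and 95.1% over all autosomal peaks. The DMSO share was 97.7% over all autosomal peaks, close to that of the members.

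The tall peaks without a partner were 13 in DMSO and 55 in MAK683. The tallest member peak in DMSO alone lay in TENM2 and had 25 tags, 1.51 RPM (0.975 to 2.22). It lay next to the shared TENM2 site printed above. Others among the 5 tallest were in GLIS3, with 19 tags, and in DNM3 and PRKG1, with 18 each. The tallest in MAK683 alone was the ARHGAP15 peak printed above, with 27 tags, 1.48 RPM (0.974 to 2.15). It was followed by peaks of 25 tags in AGBL4, DAB1 and ADARB2 and of 24 tags in CACNA1C. The 5 DMSO-only peaks sat in genes dense in DMSO peaks, but DMSO peaks as a whole were crowded, with 39.1% of them in 10 genes. Of the 5 MAK683-only peaks, 4 sat in genes with at most 7 DMSO peaks. The upper quartile over all long genes was 6 DMSO peaks, so this placement sets neither group apart.

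Where both libraries had a peak, it was mostly lower in MAK683. Overlapping peaks were merged into 1563 shared member regions, each compared by its tallest DMSO and tallest MAK683 peak. The median height was 0.783 RPM in DMSO and 0.657 RPM in MAK683, and the median log2 ratio was -0.29 (-0.31 to -0.26), with 1124 regions (71.9%) lower in MAK683 and 439 higher. Over all 56828 autosomal shared regions the median was -0.33 and 76.2% were lower, so member regions were not set apart by it. Regions at least 2 times as tall in MAK683 numbered 25 (1.60%), against 0.88% of all shared regions. Regions at most 0.5 times as tall numbered 83 (5.31%), against 5.56%. For single regions the interval of the tags lay above 0 in 12, below 0 in 78 and on both sides in 1473. Most could thus not be told from equal at this depth. These intervals were not counted over all shared regions, so whether 12 and 78 are unusual was not tested.

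The largest height ratio, among 518 regions of at least 1 RPM in either library, was in an intron of PDE10A, a striatal phosphodiesterase, with 9 tags in DMSO and 33 in MAK683, a log2 ratio of 1.74 (0.67 to 2.80). A second PDE10A region had 7 and 20 tags. Others of the top 5 lay in AGBL4, a tubulin-modifying carboxypeptidase (11 and 32), and ESRRG, an orphan nuclear receptor (9 and 26). The lowest was in INPP4B, with 17 tags in DMSO and 6 in MAK683, a log2 ratio of -1.64 (-2.98 to -0.30). TENM2 (28 and 10), FRMD4A (19 and 7), GLIS3 (19 and 7) and NAV3, a neuron navigator (21 and 8), followed. Of the 5 lowest, 4 lay in genes with fewer MAK683 peaks, the exception being NAV3 with 1 and 30 peaks.

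The tallest member peaks were shared sites in introns, 0 of the 10 tallest of either library lying in an exon. Some lay at starts of transcripts other than coding ones. Such a TSS was within 1 kb of 2 of the 10 in DMSO and 3 of the 10 in MAK683. The 10 tallest of DMSO fell in 7 genes, TENM2, INPP4B, DLGAP1, DNM3, FRMD4A, TENM4 and LSAMP, and reached 2.89 to 3.43 RPM. All 10 were lower in MAK683, at 1.37 to 2.68 RPM, but choosing them by DMSO height favours that order. Of 159 shared member regions of at least 1.5 RPM in either library, 90.6% were lower in MAK683. Over all autosomal shared regions of that height the share was 92.8%. The tallest DMSO member peak, in TENM2 (chr5:167530436-167535298), had 57 tags in DMSO, 3.43 RPM (2.60 to 4.45), and 33 in MAK683, 1.81 RPM (1.24 to 2.54). These intervals did not overlap, but they do not allow for the choice by DMSO height. The INPP4B peak had 56 and 34 tags, and lay 236 bases from the TSS of a transcript that is not a coding one. The TENM4 peak had 48 tags in both. The 10 tallest of MAK683 fell in 7 genes as well (TENM2, TENM4, DNM3, DLGAP1, DAB1, DLG2 and SOX6), at 1.97 to 2.68 RPM, and only the DAB1 peak (30 and 37 tags) was lower in DMSO.

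Most members were intronic. The summit lay in an exon of a long gene for 88 peaks in DMSO, 2.75% (2.24 to 3.37), and for 196 in MAK683, 2.59% (2.25 to 2.97), against 1.33% of the eligible bases. The TSS of a transcript other than a coding one lay within 1 kb of 4.50% (3.83 to 5.27) and 4.0% (3.58 to 4.46). Each gene was cut into 5 equal segments in the direction of transcription. The last segment held 28.5% of DMSO and 28.3% of MAK683 peaks against 19.95% of eligible sequence, and the other segments held between 17.1% and 18.6%. The fullest genes weigh most in these shares. The median distance to the nearest coding TSS was 91.0 kb in DMSO and 101 kb in MAK683. Position therefore differed little between the libraries.

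Of the motifs searched, CTCF was the one whose intervals did not overlap between shared and single-library peaks. Windows of 300 bases around each summit were searched on both strands, and a window with any match counted once. The AP-1 family was searched as TGANTCA, the GATA family as AGATAAG and the TEAD family as ACATTCC. The RUNX family was searched as TGTGGTT, the E-box as CAGCTG, the NFI core as TTGGCA, and CTCF by its consensus. These letters do not contain one another. The background was 23900 windows, 1 every 10 kb of the same genes. The CTCF consensus, bound by the factor that anchors chromatin loops, was in 7.30% of shared DMSO peaks and 7.40% of shared MAK683 peaks. The share was 1.93% of DMSO-only peaks (1.35 to 2.76), 1.16% of MAK683-only peaks (0.915 to 1.47) and 0.138% of background windows (0.0983 to 0.194). Over all members its share was 4.78% in DMSO and 2.65% in MAK683, and in distal peaks outside coding genes 5.78% and 2.88%. The share also went with height, at 6.77% and 10.4% of members of at least 1 RPM and 1.62% and 1.26% of those under 0.5 RPM. The same split was present in DMSO peaks inside shorter genes (6.70% of shared and 1.81% of single-library peaks) and outside genes (7.73% and 2.84%).

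The E-box was in 18.4% of DMSO and 18.6% of MAK683 members, against 8.72% of background windows. By sharing it went opposite ways, with 19.3% of shared and 17.4% of single-library peaks in DMSO and 16.9% and 19.1% in MAK683. The AP-1 letters were in 9.49% and 10.0%, against 9.92%, and the NFI core in 15.1% and 16.4%, against 15.5%. RUNX letters were in 6.21% and 6.12% (background 5.85%), TEAD in 4.68% and 5.33% (4.54%) and GATA in 3.03% and 3.84% (4.8%). Only CTCF and the E-box were thus clearly above background in both libraries, and GATA was below it. Windows had a median GC content of 45.7% in DMSO and 46.7% in MAK683, against 38% in the background, so that GC-rich letters are favoured at peaks. A match is a string of letters and not a measured binding site, and sequence close to a pattern was not counted.

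**Figure D4:**
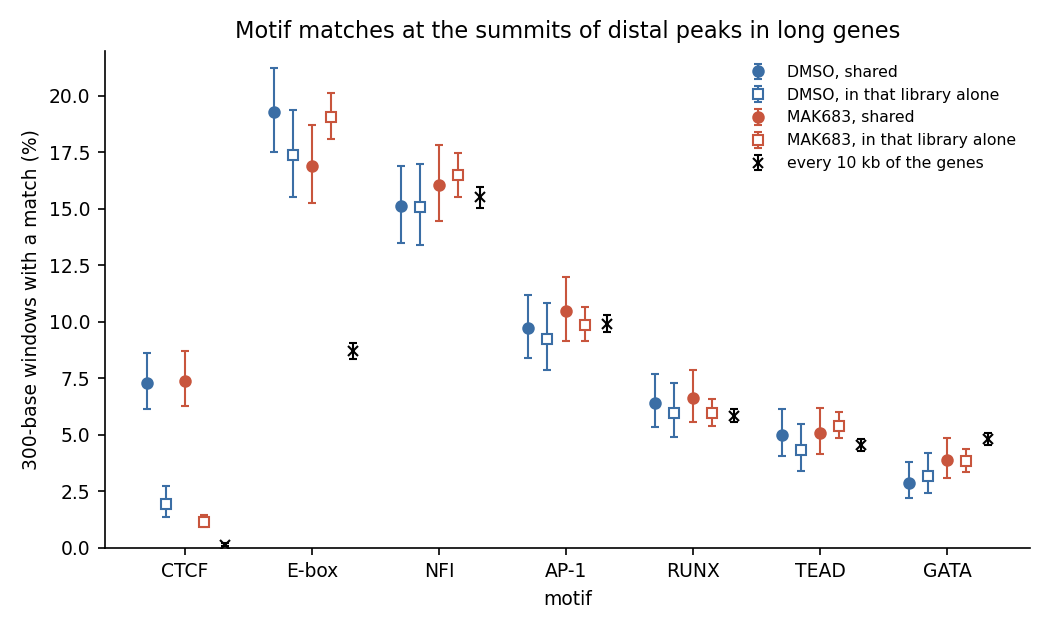
Share of 300-base windows around member summits with a motif match (y axis, percent), for peaks shared between libraries (filled circles) and in a single library (open squares), DMSO in blue and MAK683 in red, and for windows placed every 10 kb of the same genes (crosses). Bars are 95% Wilson intervals. CTCF matches are in 7.30% and 7.40% of shared peaks and in 1.93% and 1.16% of single-library peaks.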

How the data were processed

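ATAC-seq peaks of 2 G401 libraries (DMSO and MAK683, 3 days, 1 library per group as labelled) were used. The authors trimmed reads (Trim-galore) and mapped them with Bowtie2 (hg19). The file headers give MACS 2.1.1.20160309 as the peak caller, run separately for DMSO and MAK683 without control or local background, shift -100, extension 200, a q-value cutoff of 0.05 and 1 tag per position, with reads taken as single ends. The labels list MACS2 2.1.0 and 2.2.7.1. A single background level per library leaves regional coverage, such as copy number, uncorrected.

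The deposited pileup signal is a whole number of tags at the summit, unscaled. The deposited fold enrichment is a ratio to the genome-wide background. The −log10 p-value that the authors deposited was not used. The deposited −log10 q-value rises with depth and served only as a filter in alternatives. Heights were divided by 1000000 filtered tags (RPM). The libraries had 23901891 and 26692938 tags before that filter.

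Genes and TSSs came from GENCODE 44 lifted to GRCh37. Of the 310 genes, 8 were only partly remapped and 6 are readthrough loci, and 4 DMSO and 32 MAK683 peaks lay in several long genes and count in each. Ratios carry exact Clopper-Pearson intervals conditional on the sum, shares Wilson intervals, medians order-statistic intervals, single heights exact binomial intervals and single log2 ratios normal intervals on the log scale with Poisson errors. No test was run. The code for intervals, overlaps and shared regions was tested on simulated data. Python 3.11.15, numpy 2.4.6, pandas 2.3.3, scipy 1.17.1 and pyfaidx 0.9.0.4 were used.

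The members, gene lists and rules were chosen with earlier results of these data known. Named were the 10 genes with most peaks, the 8 highest and 8 lowest ratios among genes with at least 20 peaks, the genes of the 10 tallest peaks of each library, ROBO1, the 5 longest genes and 5 genes without a peak. Named peaks were the 10 tallest of each library, the 5 tallest found in that library alone, and the 5 highest and 5 lowest shared regions. Some genes and peaks that these rules select are not reported here. Other genes named as examples of a list or beside the length limit were picked after their values were seen. Alternatives were stricter q-values, height floors, equal peak numbers, other gene lengths, TSS distances and sets, peak midpoints, overlap rules, height scales, windows of 100 bases and leaving out LSAMP.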

Additional observations from a re-analysis of the deposited data

Results flagged for a closer look

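Long genes on chromosome X, which no comparison above used, also had more distal peaks in the MAK683 library than in the DMSO control. The 13 genes of at least 500 kb on that chromosome held 4 DMSO and 20 MAK683 peaks, a ratio of 5.0 (1.67 to 20.1). The locus ENSG00000250349, which the annotation gives no symbol, held 1 and 8 of them, a ratio of 8.0 (1.07 to 355). Of the 13, 8, DMD and IL1RAPL1 among them, had no distal peak in either library. Numbers this small rest on single peaks, and there was 1 library per group.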

How the results depend on the processing

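No paired analysis was possible because each group has 1 library and the labels give no shared replicate number, and for the same reason no replicate could be left out. The ratio of member peak numbers, 2.37, turned below 1 with −log10 q of at least 10 (0.951) and with heights of at least 1 RPM (0.651). It was 1.32 with −log10 q of at least 5, 1.54 with equal numbers of peaks, 2.47 with TSSs of any transcript and 2.47 without LSAMP. Under −log10 q of at least 5, 75 genes of 124 had at least 2 times as many MAK683 peaks and 19 at most 0.5 times. With equal numbers, 20 had at most 0.5 times. PTPRD went from 1.0 to 0.353 and 0.385 under those settings, and SLIT3 from 23.3 to 9.20 under the first.

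For sharing, the q-value, height and number filters came before overlap was scored, so partners had to pass them too. The shares by height given above allowed a partner of any height. The share of DMSO members overlapped by MAK683 was 47.2% and 45.9% at −log10 q of at least 5 and 10, and 38.1% at 1 RPM. It was 44.3% with equal numbers, and 50.4% and 49.9% for genes of at least 300 kb and 1 Mb. It was 27.0% when 50% of a peak had to overlap and 30.4% by summit. In the same order the MAK683 share was 36.8%, 48.7%, 60.1%, 29.8%, 22%, 21.5%, 11.4% and 12.8%, and 22.4% with TSSs of any transcript. The DMSO share was thus below the MAK683 share at 1 RPM, and at −log10 q of at least 10 with overlapping intervals. The median log2 height ratio stayed negative, at -0.24 and -0.33 for the q-values, -0.34 at 1 RPM, -0.23 with equal numbers, -0.33 for genes of 1 Mb, -0.15 unscaled and -0.22 from fold enrichment.

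Windows of 100 bases gave, for DMSO and MAK683, 3.22% and 3.19% with AP-1, 3.75% and 1.99% with CTCF, 6.81% and 7.15% with the E-box, 0.999% and 1.17% with GATA, 4.59% and 5.28% with NFI, 2.09% and 1.97% with RUNX and 1.47% and 1.93% with TEAD, and a GC content of 47% and 48.0%. Except where the filter or window itself removes peaks or bases, the cause of these shifts was not tested. Most peaks have few tags, which limits single peaks and genes more than totals.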
